A study of Mus musculus with 15 samples.

Results

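The 10 genes Pecam1, Cdh5, Esam, Emcn, Vwf, Kdr, Flt1, Tek, Tie1 and Eng, which mark endothelial cells, the cells that line blood vessels, were followed in femoral RNA of mice kept on the International Space Station or on the ground, with or without a bone defect. The first 5 serve in adhesion, cell junctions, clotting or the vessel surface, and the last 5 are receptors. Their probes on the array were found by matching each probe's accession to a mouse gene symbol, with no measured value in the choice. This gave 11 probes for the 10 genes, 2 for Kdr and 1 for each other gene, out of 55681 probes that are not controls, of which 28026 matched a symbol, 21154 symbols in all.

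RNA came from the femur of male C57BL/6J mice labelled as 9 weeks old, with 1 array per mouse and 15 mice in all. The 4 G-Sham mice were kept on the ground in the same kind of housing and had no operation. The 4 FLT-Sham mice had no operation and flew. The 4 G-Surgery and 3 FLT-Surgery mice had a segmental defect of the femur, filled with a graft or scaffold and a collagen sponge soaked in saline and held by a pin, and stayed on the ground or flew. Carcasses were frozen and partly thawed before dissection, and the labels call the tissue of all groups callus, although a sham femur has none. The study describes the quality of the RNA as sub-optimal, and as comparable between flight and ground. The sample carried Cy5 and a commercial reference RNA of mouse cell lines carried Cy3, so each value below is a log2 ratio of Cy5 to Cy3 or a Cy5 signal in the scanner's arbitrary units. Dyes were not swapped.

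Endothelial cells form vessels when vascular endothelial growth factor binds the receptor Kdr, while Flt1 binds the same ligand and can hold it away from Kdr. Angiopoietins act through Tek, with Tie1 as its partner, and keep grown vessels stable. Eng is a co-receptor for ligands of the transforming growth factor family. Cdh5, Pecam1 and Esam hold neighbouring endothelial cells together, and in bone Emcn marks a vessel type that lies near bone-forming cells. In a piece of bone, fewer endothelial cells and less RNA per endothelial cell cannot be told apart.

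Between 12864 and 18292 probes were well above background in Cy5 on the G-Sham arrays, with 14813 to 21459 on FLT-Sham, 14308 to 20688 on G-Surgery and 12491 to 14257 on FLT-Surgery. Among the FLT-Sham arrays, replicates 4, 6 and 9 had 20859, 21459 and 19419 such probes and replicate 8 had 14813. Replicate 8 stood apart from the other FLT-Sham arrays for most of the endothelial genes. Most results of the 10 genes and gene lists that use FLT-Sham are therefore given with and without it. Because it was picked on these same values, larger differences and more calls without it were built in and are not read as support. Of the 10 genes, counted by the brighter probe for Kdr, 9, 8 and 8 could be told from background on FLT-Sham replicates 4, 6 and 9, 4 on replicate 8, 3 to 5 on G-Sham arrays, 4 to 6 on G-Surgery arrays and 3 or 4 on FLT-Surgery arrays. Tek was not above background on any of the 15 arrays and Emcn on 1, so these defining markers were at the limit of the assay. The 15 arrays lay on 3 slides, and their number limits the precision of every value.

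Among the adhesion and junction genes, Cdh5, the cadherin of endothelial junctions, had the widest range. Its log2 ratio was 7.47, 8.16 and 5.77 on FLT-Sham replicates 4, 6 and 9 and 0 on replicate 8. On G-Sham replicates 1, 3, 4 and 5 it was 0, 1.42, -0.15 and 3.16, none of them with a Cy5 signal well above background. On G-Surgery replicates 1, 3, 4 and 5 it was 1.14, 5.51, 4.42 and 0, and on FLT-Surgery replicates 1, 3 and 5 it was 2.09, -0.32 and 0. The groups overlapped, because FLT-Sham replicate 8 lay at the bottom of the range and G-Surgery was divided, with replicates 3 and 4 high. A ratio of 0 here means that neither channel gave a significant signal, which the scanner software writes as no difference. The Cy3 reference was not well above background for Cdh5 on any array, so the size of the ratio rests on a substituted Cy3 value, and the Cy5 signal itself was 1320, 1880 and 449 on FLT-Sham replicates 4, 6 and 9, 23.2 on replicate 8, and 34.4 to 129 on the G-Sham arrays.

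Esam, another adhesion molecule of endothelial junctions and platelets, had log2 ratios of 5.31, 5.86 and 3.90 on FLT-Sham replicates 4, 6 and 9 and -0.69 on replicate 8. On G-Sham replicates 1, 3, 4 and 5 it was -0.64, 0.38, 0 and 3.56. On G-Surgery replicates 1, 3, 4 and 5 it was 2.43, 3.48, 3.71 and 1.84, and on FLT-Surgery replicates 1, 3 and 5 it was 2.05, -0.48 and -0.72. FLT-Surgery replicate 1 lay within the range of G-Surgery, and the other FLT-Surgery arrays lay below it. Vwf, the blood clotting protein that endothelial cells store and megakaryocytes also make, had a measured reference on all 15 arrays. Its log2 ratio was 2.99, 3.22 and 2.03 on FLT-Sham replicates 4, 6 and 9 and -0.06 on replicate 8, and -2.03, 0.47, 0.96 and 1.24 on G-Sham replicates 1, 3, 4 and 5. It was 0.42, 1.74, 0.68 and 0.40 on G-Surgery replicates 1, 3, 4 and 5, and 0.75, -1.55 and -3.58 on FLT-Surgery replicates 1, 3 and 5.

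Pecam1, an adhesion molecule that leukocytes and platelets also carry, did not follow this pattern. Its log2 ratio was 0.54, 0.77, 1.45 and 0.85 on FLT-Sham replicates 4, 6, 8 and 9, and 1.94, 1.64, 1.84 and -0.32 on G-Sham replicates 1, 3, 4 and 5. It was 2.55, 1.38, 2.03 and 1.99 on G-Surgery replicates 1, 3, 4 and 5, and -0.13, 1.74 and 2.38 on FLT-Surgery replicates 1, 3 and 5. FLT-Sham replicates 4, 6 and 9, the high arrays for Cdh5, were below FLT-Sham replicate 8 for Pecam1. Emcn, a surface sialomucin, was well above background in Cy5 only on FLT-Sham replicate 4, with a signal of 135, and its signal on the other arrays was 12.4 to 44.4.

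Of the receptors, Flt1 had Cy5 and Cy3 signals well above background on all 15 arrays. Its Cy5 signal was 10700, 12000 and 8120 on FLT-Sham replicates 4, 6 and 9, 2240 on replicate 8 and 1380 to 3510 on G-Sham arrays. In log2 ratios this was 3.08, 3.04, 2.64 and 1.07 on FLT-Sham replicates 4, 6, 9 and 8 against 0.04, 0.93, 1.27 and 2.31 on G-Sham replicates 1, 3, 4 and 5. Of the FLT-Sham arrays, replicate 8 alone lay within the range of G-Sham. On G-Surgery replicates 1, 3, 4 and 5 the log2 ratio was 1.40, 1.99, 1.40 and 1.5, a narrow range, and on FLT-Surgery replicates 1, 3 and 5 it was 2.11, -0.77 and 0.38, with arrays on both sides of it.

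Tie1, the receptor that pairs with Tek, was well above background only on FLT-Sham replicates 4, 6 and 9, with Cy5 signals of 242, 284 and 114. On FLT-Sham replicate 8 the signal was 14.7, and on the G-Sham, G-Surgery and FLT-Surgery arrays it was 12.8 to 35.2. For Tek the signal was 12.1 to 67.9 over all arrays and no group could be placed above another. Eng, with a measured reference on all arrays, had log2 ratios of 0.28, 0.66 and -0.13 on FLT-Sham replicates 4, 6 and 9 and -2.92 on replicate 8, against -3.61, 0.03, -1.06 and -0.38 on G-Sham replicates 1, 3, 4 and 5. The G-Surgery replicates 1, 3, 4 and 5 had -0.34, -1.02, -0.63 and -2.26, and the FLT-Surgery replicates 1, 3 and 5 had -0.95, -2.38 and -1.51, so all groups overlapped for Eng.

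**Figure D1:**
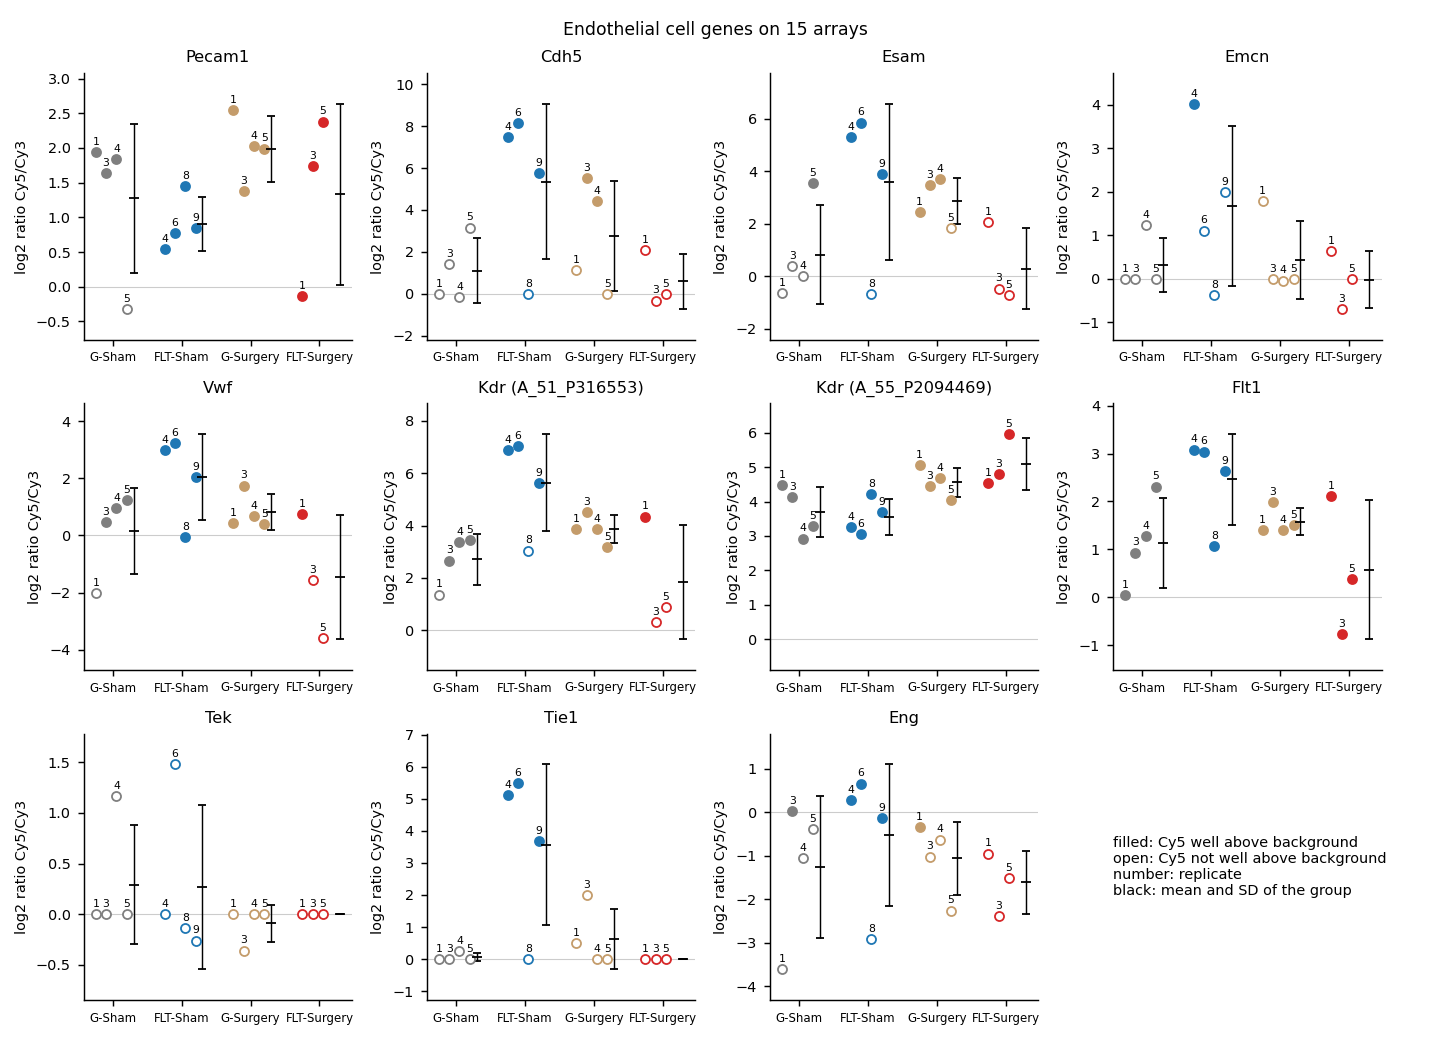
Log2 ratio of Cy5 (sample) to Cy3 (reference) of the 11 probes on the 15 arrays, by group, with the replicate number beside each point. Filled points have a Cy5 signal well above background, open points do not, and the black bars show the mean and SD of the group. FLT-Sham replicates 4, 6 and 9 stand high for Cdh5, Esam, Vwf, Kdr (A_51_P316553), Flt1 and Tie1, and FLT-Sham replicate 8 does not.

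Kdr, the main receptor for vascular endothelial growth factor, had 2 probes that match the same accession and ran apart. Probe A_51_P316553, printed in 10 spots, had a Cy3 reference well above background on 1 of the 15 arrays, so the size of its ratio rests mostly on a substituted Cy3 value. It had log2 ratios of 6.89, 7.02 and 5.62 on FLT-Sham replicates 4, 6 and 9 and 3.04 on replicate 8, against 1.36, 2.66, 3.36 and 3.44 on G-Sham replicates 1, 3, 4 and 5. It was 3.87, 4.50, 3.87 and 3.19 on G-Surgery replicates 1, 3, 4 and 5 and 4.34, 0.30 and 0.89 on FLT-Surgery replicates 1, 3 and 5. FLT-Sham replicates 4, 6 and 9 were the 3 highest of the 15 arrays for this probe, as they were for Cdh5, Esam, Vwf, Flt1 and Tie1.

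Probe A_55_P2094469, which has 1 spot and was well above background in both channels on all arrays, had log2 ratios of 3.26, 3.05, 4.21 and 3.69 on FLT-Sham replicates 4, 6, 8 and 9 and 4.48, 4.13, 2.92 and 3.28 on G-Sham replicates 1, 3, 4 and 5. On G-Surgery replicates 1, 3, 4 and 5 it was 5.05, 4.44, 4.68 and 4.05. On FLT-Surgery replicates 1, 3 and 5 it was 4.54, 4.80 and 5.96, above all 4 FLT-Sham arrays. On FLT-Surgery replicate 5 this probe had its highest ratio, while A_51_P316553 had its second lowest there. Which of the 2 probes follows the Kdr transcript was not tested, so both are given for Kdr throughout.

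**Figure D2:**
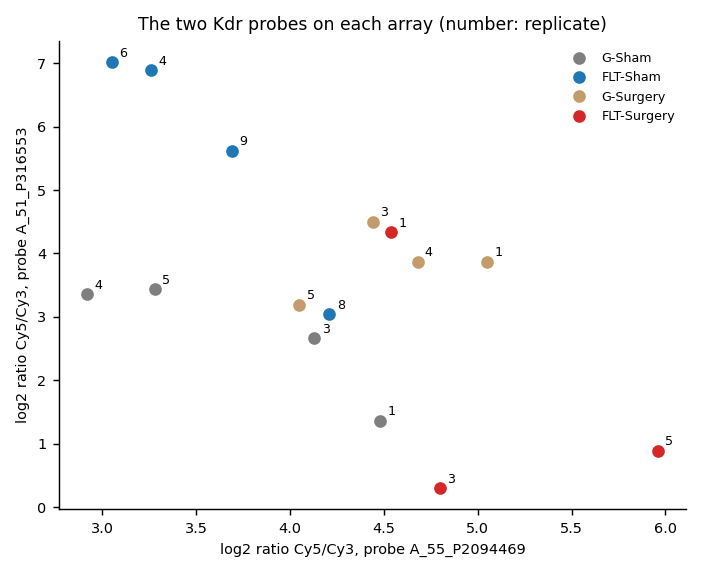
Log2 ratio of Cy5 to Cy3 of Kdr probe A_55_P2094469 (horizontal) against Kdr probe A_51_P316553 (vertical), 1 point per array, coloured by group and labelled with the replicate. FLT-Sham replicates 4 and 6 are highest for one probe, at 6.89 and 7.02, and low for the other, at 3.26 and 3.05, and FLT-Surgery replicates 3 and 5 are at 0.30 and 0.89 for the first and at 4.80 and 5.96 for the other, with G-Surgery replicate 1 between them at 5.05.

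Sequences before the transcription start were at hand for 6 of the 10 genes, Emcn, Kdr, Flt1, Tek, Tie1 and Eng, from RefSeq on build GRCm38.p6. The 250 bases before the start are shown for Kdr, Flt1 and Tie1, receptors with a probe that was high on the same 3 FLT-Sham arrays, and for Tek, the receptor at background on all arrays. Capitals mark GGAAG, the core bound by ETS factors, a family known to act in endothelial genes, on either strand (CTTCC on the other). The stretches lie on the minus strand at chr5:75978456-75978705 for Kdr, chr5:147726012-147726261 for Flt1 and chr4:118489850-118490099 for Tie1, and on the plus strand at chr4:94739039-94739288 for Tek.
Kdr: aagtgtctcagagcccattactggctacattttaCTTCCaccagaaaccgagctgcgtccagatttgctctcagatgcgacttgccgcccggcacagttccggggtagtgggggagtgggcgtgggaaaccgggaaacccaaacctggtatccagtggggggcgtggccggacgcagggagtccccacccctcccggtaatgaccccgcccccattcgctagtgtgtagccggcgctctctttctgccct
Flt1: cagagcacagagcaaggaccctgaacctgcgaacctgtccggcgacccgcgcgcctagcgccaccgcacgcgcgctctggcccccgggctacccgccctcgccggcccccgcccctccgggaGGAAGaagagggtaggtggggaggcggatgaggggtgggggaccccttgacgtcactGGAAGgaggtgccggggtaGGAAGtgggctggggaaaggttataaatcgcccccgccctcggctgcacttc
Tie1: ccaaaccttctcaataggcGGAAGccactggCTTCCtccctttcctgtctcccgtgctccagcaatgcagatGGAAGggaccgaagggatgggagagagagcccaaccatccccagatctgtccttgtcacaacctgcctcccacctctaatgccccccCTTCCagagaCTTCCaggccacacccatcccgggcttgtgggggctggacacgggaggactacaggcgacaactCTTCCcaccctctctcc
Tek: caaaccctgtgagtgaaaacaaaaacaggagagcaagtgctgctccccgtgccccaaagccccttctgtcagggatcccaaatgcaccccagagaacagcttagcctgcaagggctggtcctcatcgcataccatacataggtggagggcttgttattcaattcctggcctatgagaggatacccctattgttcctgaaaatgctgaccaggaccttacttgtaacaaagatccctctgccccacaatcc

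The core was found 1 time for Kdr, 3 times for Flt1, 6 times for Tie1 and 0 times for Tek, and 2 times each for Emcn and Eng. Of 32851 stretches of this length in the same table, 64.1% held it at least once, with a median of 1 match, so most genes of any kind carry it. The TATA box letters TATAAA, on either strand, were in the Flt1 stretch and in none of the other 5, against 12.4% of all stretches. The GATA letters AGATAA were in none of the 6, against 9.99% of all stretches. These are matches of letters and not measured binding.

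The first comparison asked how the femur without an operation differed between flight and ground. FLT-Sham had higher mean log2 ratios than G-Sham for Cdh5, Esam, Vwf, Kdr (A_51_P316553), Flt1, Tie1 and Eng, but no member passed the cut-off of the study, a 2-fold change or more together with a limma p, before adjustment, no higher than 0.01. Of all 19737 probes tested, 2% passed it, 1.79% upward and 0.208% downward. Of the 10 genes, 8 were tested, and Cdh5 and Tie1 entered the test only through their FLT-Sham arrays. At an unadjusted p of 0.05, 3 genes passed (Cdh5, Kdr and Tie1), where 9.57% of all probes did, and 0% of all probes reached an adjusted p of 0.05.

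Flt1, measured on every array, was higher in FLT-Sham by 1.32 ± 0.61 on the log2 scale (SE, n = 4 and 4; limma, Benjamini-Hochberg adjusted p = 0.517). The difference for Kdr was 2.94 ± 0.90 with A_51_P316553 (adjusted p = 0.491) and -0.15 ± 0.45 with A_55_P2094469 (adjusted p = 0.870). Both Kdr probes are on the same arrays, and their signs were opposite. For Vwf the difference was 1.89 ± 0.91 (adjusted p = 0.522), for Esam 2.77 ± 1.48 (adjusted p = 0.522), for Eng 0.73 ± 0.99 (adjusted p = 0.704) and for Pecam1 -0.37 ± 0.54 (adjusted p = 0.723). Cdh5 and Tie1 were not well above background on any G-Sham array, so only a lower limit can be given for them. On Cy5 values scaled alike between arrays (loess, then Aquantile), and with dye bias possible, Cdh5 was at least 3.91-fold and Tie1 at least 1.26-fold higher in FLT-Sham, each measured on 3 of 4 FLT-Sham arrays (limma on the log ratio, adjusted p = 0.510 and 0.491).

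Without FLT-Sham replicate 8, 5 genes passed the cut-off upward (Cdh5, Esam, Kdr, Flt1 and Tie1), where 9.12% of all 19413 probes passed upward and 1.54% downward. Cdh5 and Tie1 entered the test only through their FLT-Sham arrays, so nothing is read from their calls. The difference was then 1.79 ± 0.52 for Flt1 (limma, adjusted p = 0.0915), 3.81 ± 0.60 for Kdr A_51_P316553 (adjusted p = 0.0261), 4.19 ± 1.0 for Esam (adjusted p = 0.067) and 2.59 for Vwf, which did not pass. Pecam1 and Kdr A_55_P2094469 stayed below 0, at -0.56 and -0.37. Leaving out any other array of this comparison gave 0 genes past the cut-off. FLT-Sham replicates 4, 6 and 9 were also the FLT-Sham arrays with the most probes above background, and the part of this in the result was not tested.

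The second comparison asked the same of the femur with a bone defect. FLT-Surgery had lower mean log2 ratios than G-Surgery for Esam, Vwf, Flt1 and Kdr (A_51_P316553), and none of the 5 genes tested passed the cut-off, where 3.14% of all 16546 probes passed, 1.05% upward and 2.09% downward. Esam and Vwf passed an unadjusted p of 0.05 in limma, as did 16.4% of all probes, and 0% of all probes reached an adjusted p of 0.05. The difference was -2.27 ± 0.93 for Vwf (SE, n = 3 and 4; limma, adjusted p = 0.294), -1.0 ± 0.63 for Flt1 (adjusted p = 0.425) and -0.66 ± 0.60 for Pecam1 (adjusted p = 0.585). Esam was not above background on any FLT-Surgery array and on 3 of 4 G-Surgery arrays, which gave a bound of at least 1.09-fold higher in G-Surgery (adjusted p = 0.280). It thus entered the test only through G-Surgery, and nothing is read from its passing a p cut-off. Kdr again had opposite signs, at -2.02 ± 0.92 with A_51_P316553 (adjusted p = 0.316) and 0.54 ± 0.42 with A_55_P2094469 (adjusted p = 0.516).

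The FLT-Surgery arrays were not alike. Replicate 1 was the highest of them for Esam, Vwf, Flt1 and Kdr A_51_P316553, and without it these 4 genes passed the cut-off downward, where 11.4% of all 16108 probes passed downward and 1.3% upward. Flt1, above background on every array, was then at -1.77 (limma, adjusted p = 0.0412). Vwf, Kdr A_51_P316553 and Esam were not above background on replicate 3 or 5, with Cy5 signals of 160 and 58 for Vwf, 43.9 and 77 for Kdr and 19.1 and 21.5 for Esam, so the size of their differences without replicate 1 depends on values at background. Replicate 1 lay on slide 2 and the other 2 FLT-Surgery arrays on slide 1. Within slide 1, with 2 FLT-Surgery and 3 G-Surgery arrays, the difference was -1.63 for Flt1, -3.07 for Vwf and -3.05 for Kdr A_51_P316553, the last 2 with FLT-Surgery arrays at background, and within slide 2, with 1 array of each group, it was 0.12, -0.99 and -0.16. With slide as a block, Esam, Vwf and Kdr passed the cut-off downward (limma, adjusted p = 0.0834, 0.105 and 0.114), where 6.53% of all probes did. Without G-Surgery replicate 5, Esam alone passed, where 2.48% of all probes passed downward. Esam entered each of these tests only through G-Surgery, so nothing is read from its calls.

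The third comparison set the defect against the sham femur on the ground. G-Surgery had mean log2 ratios above G-Sham for all 5 genes tested and for both Kdr probes, with no gene past the cut-off, where 2.59% of all 17674 probes passed, 2.08% upward and 0.509% downward. Esam and Kdr (A_51_P316553) passed an unadjusted p of 0.05 in limma, as did 10.9% of all probes, and 0.0113% of all probes reached an adjusted p of 0.05. The difference was 2.04 ± 0.89 for Esam (SE, n = 4 and 4; limma, adjusted p = 0.458), 1.15 ± 0.50 for Kdr A_51_P316553 (adjusted p = 0.458), 0.85 ± 0.40 for Kdr A_55_P2094469 (adjusted p = 0.483) and 0.44 ± 0.46 for Flt1 (adjusted p = 0.725). Cdh5 was above background on 2 of 4 G-Surgery arrays and on no G-Sham array, which gave a bound of at least 1.05-fold, and it was not tested. For Esam the call depended on G-Sham replicate 5, the only G-Sham array where Esam was above background: without it the difference was 2.95 and passed the cut-off (adjusted p = 0.244), where 2.3% of all probes passed upward. No G-Sham array then had Esam above background, so the size depends on values at background.

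The fourth comparison set the defect against the sham femur in flight. FLT-Surgery had lower mean log2 ratios than FLT-Sham for Cdh5, Esam, Vwf, Kdr (A_51_P316553), Flt1, Tie1 and Eng, and no gene passed the cut-off, where 6.65% of all 19131 probes passed, 0.423% upward and 6.23% downward. At an unadjusted p of 0.05 in limma, 5 genes passed (Cdh5, Vwf, Kdr, Flt1 and Tie1), as did 24.3% of all probes, and 0.0836% of all probes reached an adjusted p of 0.05. Flt1 differed by -1.89 ± 0.78 (SE, n = 3 and 4; limma, adjusted p = 0.196), Vwf by -3.51 ± 1.14 (adjusted p = 0.158) and Kdr A_51_P316553 by -3.80 ± 1.26 (adjusted p = 0.158). Cdh5, Esam, Eng and Tie1 were above background on no FLT-Surgery array and on 3 of 4 FLT-Sham arrays, so they entered the test only through FLT-Sham. Cdh5, Esam and Eng were at least 2.86-fold, 2.62-fold and 1.67-fold higher in FLT-Sham (adjusted p = 0.183, 0.232 and 0.413), and no fold can be given for Tie1. Kdr A_55_P2094469 ran the other way, at 1.55 ± 0.49 (adjusted p = 0.155), and was the 1 member probe of this comparison whose groups did not overlap, as for 4.06% of all probes in that direction. On the Cy5 signal alone it passed the cut-off, at 1.52 ± 0.46 (adjusted p = 0.139), where 1.45% of all probes passed upward.

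Without FLT-Sham replicate 8, 6 genes passed the cut-off in this comparison, where 21.2% of all probes passed downward and 5.06% upward. Cdh5, Esam, Vwf, Tie1, Eng and Kdr A_51_P316553 passed downward and Kdr A_55_P2094469 passed upward. Cdh5, Esam, Tie1 and Eng were tested only because their FLT-Sham arrays were above background, so nothing is read from their count. Vwf, above background on 1 of 3 FLT-Surgery arrays, was then at -4.21 ± 1.02 (limma, adjusted p = 0.0257) and Kdr A_55_P2094469 at 1.77 ± 0.46 (adjusted p = 0.0310). Without FLT-Surgery replicate 1, Vwf, Kdr (A_51_P316553) and Flt1 passed downward, where 11.7% of all probes did. This comparison shares its FLT-Sham arrays with the first and its FLT-Surgery arrays with the second.

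**Figure D3:**
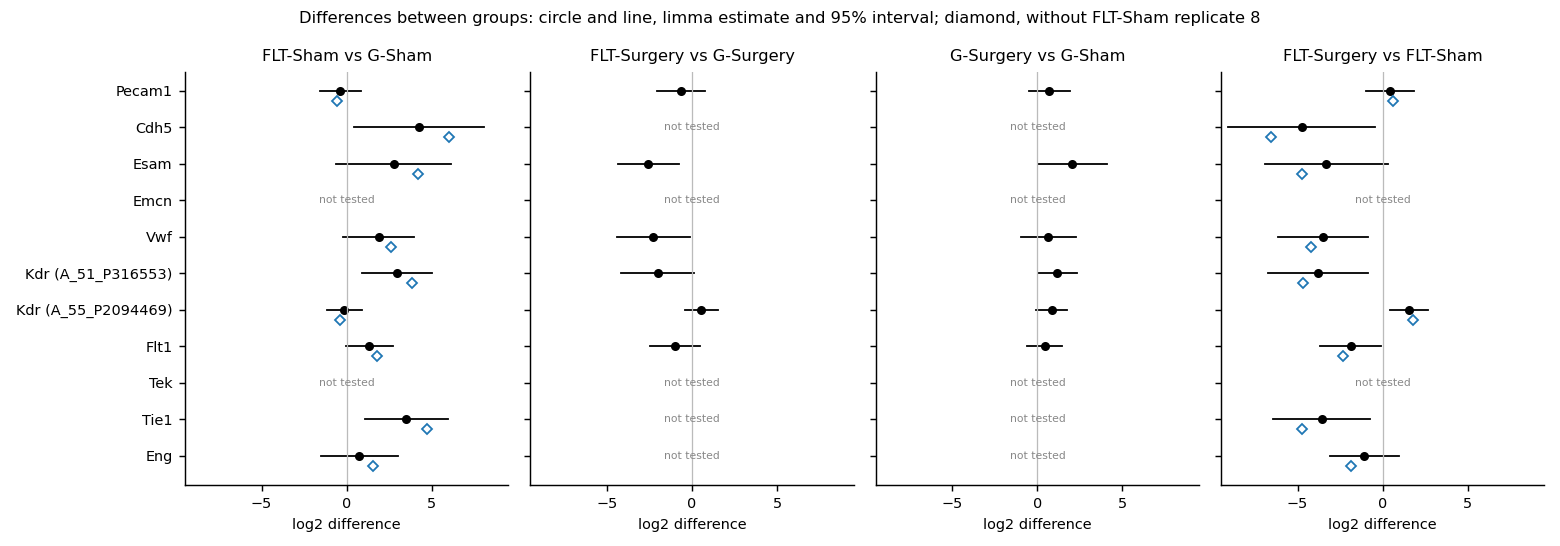
Log2 difference of the 11 probes in the 4 comparisons, first group minus second; circles and lines give the limma estimate and its 95% interval, and diamonds the estimate without FLT-Sham replicate 8. "Not tested" marks probes with a Cy5 signal above background on fewer than 3 of the arrays compared; Flt1 lies at 1.32 in FLT-Sham vs G-Sham and at 1.79 without replicate 8.

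The last test asked whether the difference between flight and ground was itself different with a bone defect, using all 15 arrays. The value is the log2 difference of FLT-Surgery from G-Surgery minus that of FLT-Sham from G-Sham. Kdr (A_51_P316553) and Tie1 passed the cut-off downward, 2 of 8 genes tested, where 5.33% of all 21774 probes passed, 4.97% downward and 0.358% upward. At an unadjusted p of 0.05, 6 genes passed, as did 19.5% of all probes, and 0% of all probes reached an adjusted p of 0.05. Kdr A_51_P316553 was at -4.95 ± 1.39 (limma, adjusted p = 0.171) and Tie1 at -4.14 ± 1.34 (adjusted p = 0.179). Tie1 was above background on 3 FLT-Sham arrays and on no other, so it entered the test only through that group, and nothing is read from its call. That leaves Kdr, with 1 of its 2 probes. Vwf was at -4.16 ± 1.41 (adjusted p = 0.188), Flt1 at -2.32 ± 0.93 (adjusted p = 0.213), Eng at -1.28 ± 1.26 (adjusted p = 0.569), Pecam1 at -0.29 ± 0.85 (adjusted p = 0.867) and Kdr A_55_P2094469 at 0.69 ± 0.64 (adjusted p = 0.539). Without FLT-Sham replicate 8, 6 genes passed downward (Cdh5, Esam, Vwf, Kdr, Flt1 and Tie1), where 13.7% of all probes passed downward and 3.79% upward. Without FLT-Surgery replicate 1, 4 genes passed downward (Esam, Vwf, Kdr and Flt1), where 9.99% of all probes did. Without FLT-Surgery replicate 3 or without FLT-Surgery replicate 5 no gene passed, where 2.87% and 2.3% of all probes passed downward.

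The genes around these receptors were read as lists, described by the median over the genes tested, each by its brightest probe. In FLT-Sham vs G-Sham, the median over all probes was 0.24. The 8 member genes had a median of 1.6, which was 0.73 to 2.19 with 1 array left out and 0.64 with another background correction (normexp, then loess). This median includes Cdh5 and Tie1, which entered the test only through their FLT-Sham arrays. The 8 ligands of the receptors tested had 0.53, and the 8 co-receptors and partners tested had 0.90, with all 8 above 0. Of 40 other endothelial markers, 29 were tested and had a median of 1.35, with 27 above 0. None of the ligands, partners or other endothelial markers passed the cut-off. Without FLT-Sham replicate 8 the medians were 2.19 for the members, 0.75 for the ligands, 1.29 for the partners and 2.13 for the other endothelial markers. Of these lists, 1 of 8 ligands, 3 of 8 partners and 10 of the 29 other endothelial markers then passed upward and none downward, where 9.12% of all probes passed upward.

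In FLT-Surgery vs G-Surgery the median over all probes was -0.20, that of 5 member genes -1.0 (-0.27 with normexp), that of 6 ligands -0.53, that of 7 partners -0.85 and that of 21 other endothelial markers -1.62. Icam2, an adhesion molecule that endothelial cells use with leukocytes, was the 1 such marker past the cut-off, at -1.86 ± 0.52 (limma, adjusted p = 0.280). Its log2 ratio was -0.54, -0.43 and -2.14 on FLT-Surgery replicates 1, 3 and 5, all below the G-Surgery range of 0.25 to 1.56, as for 7.54% of all probes in that direction. In G-Surgery vs G-Sham the median over all probes was 0.14, that of 5 member genes 0.71 (0.19 with normexp) and that of 23 other endothelial markers 0.94. Cd34, a surface protein of endothelial and blood progenitor cells, passed at 1.24 ± 0.28 (adjusted p = 0.245), and Cd93, a receptor of endothelial and myeloid cells, at 2.72 ± 0.77 (adjusted p = 0.328). For Cd34 the G-Surgery arrays were at 0.54 to 1.35 and the G-Sham arrays at -0.55 to 0.06, with no overlap, as for 5.31% of all probes in that direction.

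In FLT-Surgery vs FLT-Sham the median over all probes was -0.28, that of 8 member genes -2.60, that of 8 ligands -1.25, that of 8 partners -1.36 and that of 28 other endothelial markers -1.92. The member median includes Cdh5, Esam, Tie1 and Eng, which were tested only because their FLT-Sham arrays were above background. Its size is therefore not read as a result. With both channels above background on every array, where fewer genes could be tested, it was 0.43. Without FLT-Sham replicate 8 the medians were -3.28 for the members, -1.66 for the ligands, -1.71 for the partners and -2.72 for the other endothelial markers. Then 3 ligands, 3 partners and 13 other endothelial markers passed downward, where 21.2% of all probes did. With replicate 8 the counts were 1, 0 and 2, where 6.23% of all probes passed downward. Tgfb2, a ligand of the transforming growth factor family, passed downward with probe A_65_P10913, at -3.26 ± 0.77 (limma, adjusted p = 0.136). Its brighter probe A_51_P317640, above background on 11 arrays, did not pass, at -2.22 ± 0.89 (adjusted p = 0.188), and its groups overlapped. Esm1, a secreted proteoglycan of endothelial cells, passed at -3.39 ± 0.75 (adjusted p = 0.136), and Tal1, a factor of blood and endothelial cells, at -3.66 ± 0.89 (adjusted p = 0.136). Tgfb2 (A_65_P10913), Esm1 and Tal1 also passed without FLT-Sham replicate 8, at -3.74, -4.11 and -4.07. Tgfb2 (A_65_P10913) and Esm1 were not above background on any FLT-Surgery array, so their sizes have only a lower limit. They entered the test only through FLT-Sham, so nothing is read from their calls. As examples of signal by the brightest median, Vegfa and Vegfb among the ligands had median Cy5 signals of 7530 and 2390, Ptpn11 and Acvrl1 among the partners 5330 and 2050, and Egfl7 and Cd34 among the other endothelial markers 14600 and 12500, each above background on all 15 arrays.

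The summed Cy5 signal of the 40 other endothelial markers was highest on FLT-Sham replicates 4 and 6. It was 121000, 130000 and 86300 on FLT-Sham replicates 4, 6 and 9 and 28900 on replicate 8, and 29800 to 37100 on G-Sham arrays. It was 43500 to 93200 on G-Surgery arrays, and 62000, 24100 and 27900 on FLT-Surgery replicates 1, 3 and 5. FLT-Sham replicate 8 lay below all G-Sham arrays on this sum, and G-Surgery lay above all of them.

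**Figure D4:**
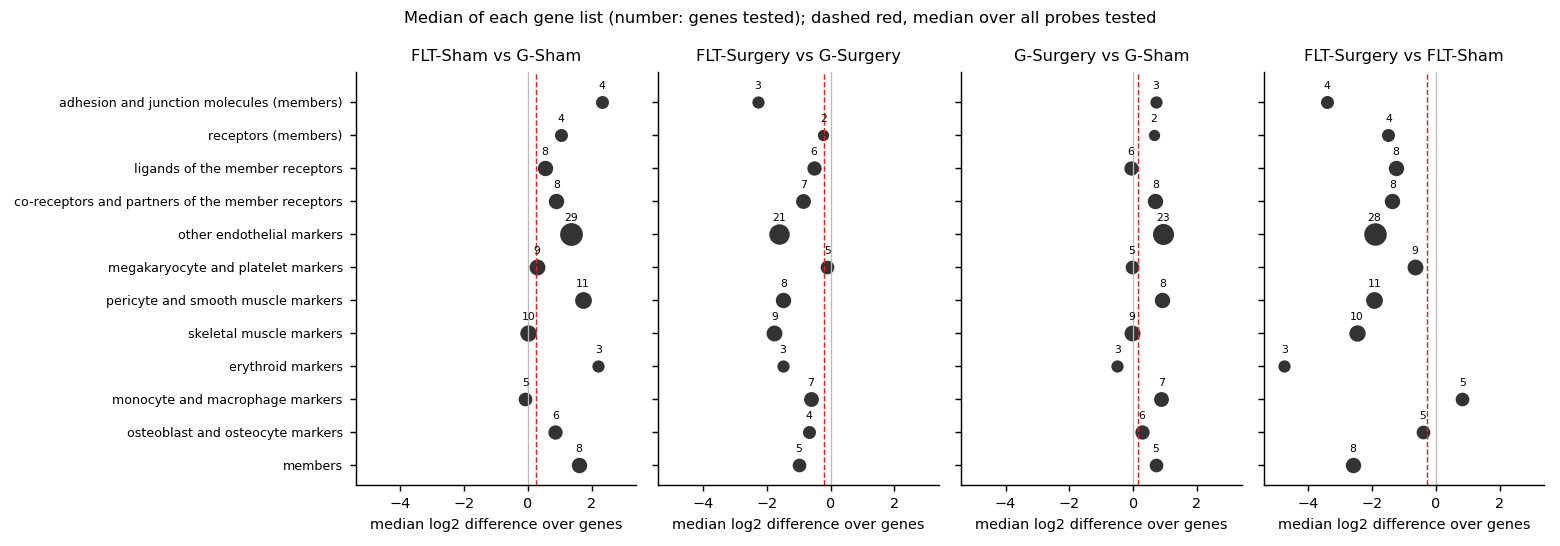
Median log2 difference over the genes of each list in the 4 comparisons, with the number of genes tested at each point and the median over all probes tested as a dashed line. In FLT-Sham vs G-Sham the other endothelial markers lie at 1.35 and the pericyte and smooth muscle markers at 1.72, against 0.24 over all probes.

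Markers of other cell types differed between the groups beside the endothelial genes, and their part in the results was not tested. Pericytes and smooth muscle cells wrap vessels, and the 11 genes of their list had a median of 1.72 in FLT-Sham vs G-Sham with 10 above 0, -1.48 over 8 genes in FLT-Surgery vs G-Surgery, 0.92 over 8 in G-Surgery vs G-Sham and -1.93 over 11 in FLT-Surgery vs FLT-Sham. Their summed Cy5 signal was 29300 to 37700 on G-Sham, 47600 to 66200 on FLT-Sham, 41300 to 83300 on G-Surgery and 34400 to 56700 on FLT-Surgery arrays. Kcnj8, a potassium channel of pericytes, passed the cut-off between FLT-Sham and G-Sham at 2.98 ± 0.74 (limma, adjusted p = 0.412), and was above background on FLT-Sham replicates 4, 6 and 9 and on no other array. Its arrays did not overlap between these groups, as for 3.64% of all probes in that direction. Kcnj8 entered the test only through FLT-Sham, so nothing is read from its call or the lack of overlap. Megakaryocytes also make Vwf, and the 9 genes of their list tested had a median of 0.29 in FLT-Sham vs G-Sham, near the 0.24 over all probes, and -0.67 in FLT-Surgery vs FLT-Sham. The medians in these comparisons without FLT-Sham replicate 8 were 2.37 and -2.57 for the pericyte list, with 4 genes past the cut-off upward and 6 downward, and 0.63 and -0.72 for the megakaryocyte list, with 3 upward and 4 downward. Of all probes, 9.12% then passed upward in FLT-Sham vs G-Sham and 21.2% downward in FLT-Surgery vs FLT-Sham.

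Skeletal muscle, which surrounds the femur, gave high signals: 9 or 10 of the 10 genes of its list were above background on each sham array and 8 or 9 on each surgery array. Their summed Cy5 signal was 844000 to 4130000 on G-Sham, 1310000 to 11800000 on FLT-Sham, 663000 to 3090000 on G-Surgery and 239000 to 2410000 on FLT-Surgery arrays. The median difference was 0.01 in FLT-Sham vs G-Sham, with 5 genes above 0, and with Cy5 alone it was 0.64, with all 10 above 0, where the median over all probes was 0.03. In FLT-Surgery vs FLT-Sham it was -2.48, with 9 of 10 genes below 0. Of the muscle genes 3 passed the cut-off downward, where 6.23% of all probes did. Myh2, a myosin of fast muscle, was among these 3, at -4.92 ± 1.02 (limma, adjusted p = 0.130). The members were at -2.60 and the other endothelial markers at -1.92, medians that both include genes tested only through FLT-Sham. The muscle median without FLT-Sham replicate 8 was 0.44 in FLT-Sham vs G-Sham, with 1 gene past the cut-off upward, where 9.12% of all probes were. In FLT-Surgery vs FLT-Sham it was then -3.27, with 5 genes past it downward, where 21.2% of all probes were. The muscle median was -1.76 in FLT-Surgery vs G-Surgery, where Myh2 passed at -5.48 ± 1.08 (limma, adjusted p = 0.208). Of the erythroid list 3 genes were tested, with medians of 2.21 and -1.5 in the 2 flight comparisons, and without FLT-Sham replicate 8 of 2.98 in FLT-Sham vs G-Sham and -5.51 in FLT-Surgery vs FLT-Sham. The monocyte and macrophage list had medians of -0.08 over 5 genes and -0.62 over 7, and the osteoblast and osteocyte list 0.86 over 6 and -0.68 over 4. Between FLT-Surgery and FLT-Sham, the erythroid genes Slc4a1 and Alas2, the platelet integrin gene Itga2b and the alkaline phosphatase gene Alpl also passed downward, at -4.75, -5.88, -2.44 and -4.53, with arrays that did not overlap, as for 10.6% of all probes in that direction. Slc4a1, Itga2b and Alpl were not above background on any FLT-Surgery array, nor was Kcnj8 on any G-Sham array, so the size of these differences depends on the values at background. These genes entered their tests only through FLT-Sham, so nothing is read from their calls. Between G-Surgery and G-Sham, Tagln of smooth muscle, Ctss and Cd14 of myeloid cells and Ibsp of osteoblasts passed upward, at 1.22, 2.38, 1.29 and 3.1. For Ibsp this was probe A_55_P2075485, and its other probe A_55_P1986813 did not pass, at 2.75. Ibsp also passed upward between FLT-Sham and G-Sham, at 2.35 and 4.02 with its 2 probes. Of the osteoblast and osteocyte list, each gene by its brightest probe, Col1a1 and Col1a2 were above background on all 15 arrays. Ibsp was above it on 14 arrays, Bglap on 8, Alpl on 7, Runx2 on 6, and Sp7, Phex, Dmp1 and Sost on 0.

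**Figure D5:**
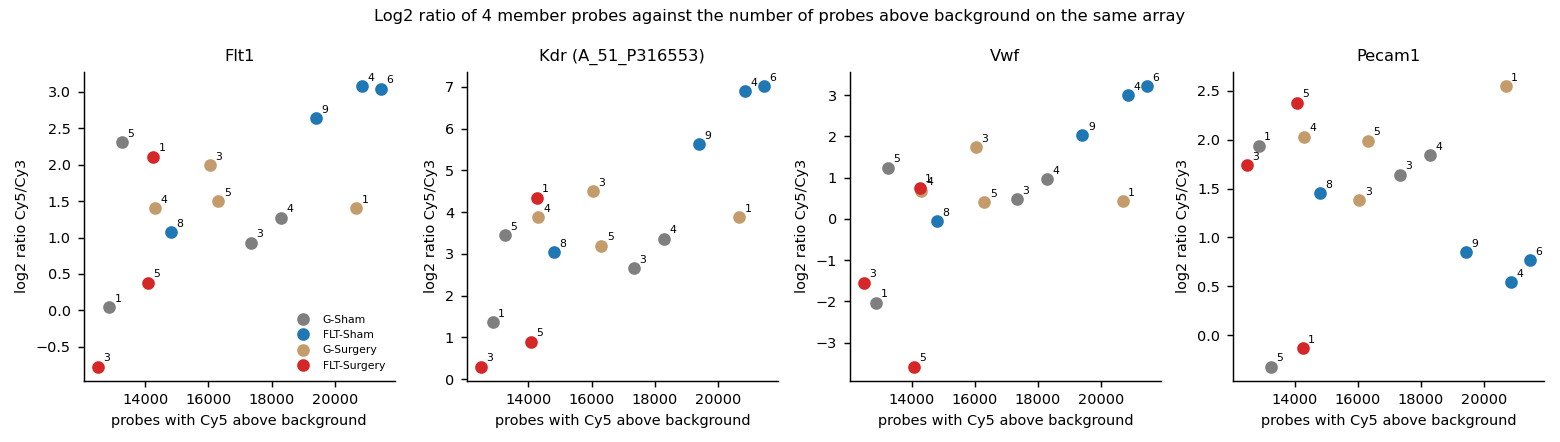
Log2 ratio of Flt1, Kdr (A_51_P316553), Vwf and Pecam1 against the number of probes with a Cy5 signal well above background on the same array, 1 point per array, labelled with the replicate. FLT-Sham replicates 4, 6 and 9, with 19419 to 21459 such probes, are high for the first 3 genes and low for Pecam1. G-Surgery replicate 1, with 20688, is not high for Flt1, at 1.40, or Vwf, at 0.42, and is the highest array for Pecam1, at 2.55.

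G-Surgery replicate 1 had 20688 probes above background, near the 20859 and 21459 of FLT-Sham replicates 4 and 6. Its log2 ratios of 1.40 for Flt1, 0.42 for Vwf, 3.87 for Kdr A_51_P316553 and 1.14 for Cdh5 lay within the range of the other G-Surgery arrays. It was the highest G-Surgery array for Pecam1, Kdr A_55_P2094469, Eng and Emcn, at 2.55, 5.05, -0.34 and 1.78. On the arrays with the fewest probes above background, FLT-Surgery replicate 3 with 12491 and G-Sham replicate 1 with 12864, Flt1 was at -0.77 and 0.04, the 2 lowest of the 15. The part of the number of probes above background in these values was not tested.

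The 4 member genes Pecam1, Vwf, Kdr (A_55_P2094469) and Flt1 were above background on at least 8 arrays by their brightest probe, and their mean log2 ratio, centred over the arrays, was compared with 8021 genes. The nearest were Psmb3, Sppl3, Rps21, Pkd1 and Cdk9, with root mean square differences of 0.15 to 0.19 on the log2 scale over the 15 arrays. For Flt1 alone, a choice made after its values were seen, the nearest genes were Dync1h1, Appbp2, Smchd1, Mmaa and Polr2k, with differences of 0.26 to 0.32.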

How the data were processed

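Femoral RNA of 15 mice was measured on 2-colour Agilent arrays, 1 per mouse, and groups were taken from the labels. The authors deposited the scanner output of Agilent Feature Extraction (12.0.3.1 per the file headers, 12.0 in the submitters' processing notes), which holds the intensity of each spot, background-subtracted and dye-normalized, and a log10 ratio of Cy5 to Cy3. The deposited series table holds the same log10 ratio, rounded.

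The deposited log10 ratio was converted to log2 and not normalized again. Spots marked as outliers were dropped before the mean over a probe's spots. A probe entered a test when its Cy5 signal was well above background on 3 or more of the arrays in it. Differences were fitted with limma 3.58.1 (R 4.3.3) on the arrays of both groups, or on all 15 for the difference between surgery and sham. Genes with several probes count as past the cut-off through any of them. The members are named with every probe, and list genes where they passed the cut-off with no overlap of arrays, or as the 2 brightest of a list. Nearest patterns are the 5 genes closest to the members' mean.

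The members and lists were chosen with earlier results of these data known. Alternatives were a further loess, median centring, Cy5 alone, normexp with an offset of 50 (on median signals), other filters, all arrays in 1 fit, array weights, slide and replicate blocks, the series table, each array left out and, chosen after seeing the data, ratios without a significant signal set to missing. Tested on simulated data with 200 probes moved by 2 (log2), the fit called 65.5% of them in FLT-Sham vs G-Sham (19737 probes), with 171 unmoved probes, and 72.5% in FLT-Surgery vs G-Surgery (16546 probes), with 140. It called 75.5% in G-Surgery vs G-Sham, with 180 unmoved probes, and 56.5% in FLT-Surgery vs FLT-Sham, with 227.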

Additional observations from a re-analysis of the deposited data

Results flagged for a closer look

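In 7 of 33 groups of 4 arrays, the highest or lowest array was farther from the others than Dixon's 95% limit allows, where chance gives about 1 in 20. That rate does not hold where the other arrays all carry a written ratio of 0, as in several of these cases. Pecam1 had a log2 ratio of -0.32 on 1 G-Sham array, replicate 5, and 1.64 to 1.94 on the others. The other 6 cases were of genes at background in these groups or, for Tek in FLT-Sham, on all arrays: Emcn at 1.24 in G-Sham and 1.78 in G-Surgery, Tek at 1.17 in G-Sham and -0.36 in G-Surgery, and Tie1 at 0.25 in G-Sham, where most other arrays of the group hold a ratio of 0, and Tek at 1.48 in FLT-Sham, where the others hold 0, -0.14 and -0.26.

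For the difference between surgery and sham in the effect of flight (limma interaction term), 2 genes passed the cut-off of the study, where 5.33% of all probes passed it, 4.97% downward, and 0% reached an adjusted p of 0.05. The term was -4.95 for Kdr (A_51_P316553; adjusted p = 0.171) and -4.14 for Tie1 (adjusted p = 0.179). For the other Kdr probe it was 0.69 (adjusted p = 0.539). Tie1 entered the test only through 3 FLT-Sham arrays. The count of genes past the cut-off was 0 to 6 with 1 array left out.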

How the results depend on the processing

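For FLT-Sham vs G-Sham, 0 member genes passed the cut-off, against 1 with median centring, 2 with all 15 arrays in the fit, 6 with array weights, 2 with ratios missing where neither channel was significant (1.91%, 3.02%, 21.8% and 2.11% of all probes, 2% otherwise), and 0 to 5 with 1 array left out. For FLT-Surgery vs G-Surgery it was 0, against 4 with array weights, 3 with the slide block (10.8% and 7.8% of all probes, 3.14% otherwise) and 0 to 4 with 1 array left out, and for G-Surgery vs G-Sham 0, against 0 to 1 with 1 array left out. For FLT-Surgery vs FLT-Sham it was 0, against 1 with Cy5 alone, 1 with both channels above background on every array, 3 with all 15 arrays, 7 with array weights, 1 with such ratios missing (7.17%, 6.36%, 13.6%, 45.7% and 6.64% of all probes, 6.65% otherwise) and 0 to 6 with 1 array left out. The median over member genes was -1.77 to -0.76 with 1 array left out in FLT-Surgery vs G-Surgery and 0.69 to 0.93 in G-Surgery vs G-Sham. That of FLT-Surgery vs FLT-Sham, -2.60, was -0.74 with normexp, 0.43 with both channels above background, where fewer genes could be tested, and -3.28 to -0.66 with 1 array left out. For the difference between surgery and sham 2 member genes passed the cut-off, against 1 with normexp, 1 with no filter, 0 with both channels above background, 6 with array weights, 1 with the slide block (1.47%, 2.91%, 7.07%, 28.6% and 3.69% of all probes, 5.33% otherwise) and 0 to 6 with 1 array left out. Signs turned for Kdr A_55_P2094469 in FLT-Sham vs G-Sham (0.19 with median centring, -0.41 to 0.11 with 1 array left out), Eng there (-0.0524 to 1.53), Pecam1 in FLT-Surgery vs G-Surgery (0.36 with further loess, -1.18 to 0.0717), Vwf in G-Surgery vs G-Sham (-0.0755 to 1.01), Pecam1 in FLT-Surgery vs FLT-Sham (-0.11 with median centring, -0.10 to 1.16) and Eng there (0.16 with further loess). For the difference between surgery and sham they turned for Pecam1 (1.55 with further loess, 0.34 with Cy5 alone, 0.34 with array weights, -0.81 to 0.44) and Eng (0.37 with further loess). The causes were not tested. With the replicate block, 0 member genes passed in FLT-Surgery vs G-Surgery and 0 in G-Surgery vs G-Sham; same-numbered arrays correlated at -0.36 to 0.24 and -0.16 to 0.35, so the numbers do not pair the mice, and the other comparisons share too few numbers. Signal over background limits Cdh5, Esam, Emcn, Tek and Tie1, whose reference was above background on 0 arrays, and Kdr A_51_P316553, with 1.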
